A study of Homo sapiens with 24 samples.

Results

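The experiment described here is 1 microarray of the 24 in the series: PC3 prostate cancer (PCa) cells transfected with miR-27b, set against PC3 cells transfected with a control miRNA. It was chosen by its labels alone, as the single array with miR-27b in the Cy5 channel and control miRNA in the Cy3 channel of PC3. The series holds 2-colour Agilent arrays of cancer cell lines after miRNA or siRNA transfection or compound treatment. PC3 is an androgen-independent line from a bone metastasis of prostate cancer. Transfection was with Lipofectamine RNAiMAX and RNA was extracted with Trizol. Dose, time after transfection and the strand of the miRNA given to the cells are not given in the sources used here. The comparison arrays were PC3 with miR-23b, PC3 with miR-24 and PC3 with miR-145, each in Cy5 over its own control channel in Cy3, on the same array design. The miR-27b, miR-23b and miR-24 arrays were on 1 slide and the miR-145 array was on another, so slide and miRNA cannot be told apart for miR-145. Arrays of miR-27b in 786O and A498, which are renal cancer lines, were on another design. Each condition had 1 array and no dye swap, so a dye effect and an effect of the miRNA cannot be told apart on any single array.

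A miRNA guides an Argonaute complex to messenger RNAs, mainly through pairing of its seed, the bases near its 5′ end, with sites that lie mostly in 3′ untranslated regions. Paired messages are usually destabilised and translated less. miR-27b belongs to the miR-27 family and is made from a cluster with miR-23b and miR-24, and miR-27 has been linked to lipid metabolism, blood vessel growth and growth control.

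The mature sequences are shown because the seed, bases 2 to 8 in capitals, defines the sites looked for on the array. They are from RefSeq on GRCh38.p14, and the arm that is usually the more abundant one was taken for each miRNA.
hsa-miR-27b-3p: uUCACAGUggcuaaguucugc
hsa-miR-27a-3p: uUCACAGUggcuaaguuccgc
hsa-miR-23b-3p: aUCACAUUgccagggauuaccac
hsa-miR-24-3p: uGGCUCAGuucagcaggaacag
hsa-miR-145-5p: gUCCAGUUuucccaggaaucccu
miR-27b-3p lies at chr9:95085505-95085525 on the plus strand, between miR-23b-3p at chr9:95085265-95085287 and miR-24-3p at chr9:95086064-95086085. miR-27a-3p, on chromosome 19, has the same seed as miR-27b-3p. The seed of miR-23b-3p shares its first letters with that of miR-27b, and those of miR-24-3p and miR-145-5p differ from it.

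The array measured 42405 probes, of which 28403 were matched to 20508 genes. Probes too dim in both channels of any of the 4 PC3 arrays were set aside, which left 13837 genes, each read from its brightest tested probe. On the miR-27b array 56.5% of Cy3 spots and 66.0% of Cy5 spots cleared the scanner's background, 500 spots were flagged as outliers and 0 were saturated. The software's error for a log2 ratio had a median of 0.21 over tested genes, and the SD over repeat spots had a median of 0.06 over 719 probes with at least 5 spots. These errors cover the array and not the cell culture. Of 5 genes known to be present in PC3, KRT8, KRT18, VIM, CD44 and CAV1, all 5 were above background in the control channel. Of 6 genes that PC3 lacks or hardly expresses, 1 was above background there, and the probes of KLK2, KLK3 and CTNNA1 were not. Among markers of other cell types, COL1A1 and LUM of fibroblasts and PTPRC and CD14 of leukocytes were above background. The control channels of the miR-27b, miR-23b and miR-24 arrays were nearly alike, with an SD of the log2 signal difference of 0.23 to miR-23b and 0.22 to miR-24, against 0.69 to the control of the miR-145 array. The names under which these 3 arrays were deposited give the same code for their control, but the labels do not say whether it was 1 RNA. If it was, the ratios on these 3 arrays depend on one another.

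Sites for miR-27b were lower on the miR-27b array and not on the others. No transcript sequences were used, so the sites were looked for in the 60-base probes themselves. The 7-letter site ACTGTGA, which pairs with the seed, stood in 151 of 18329 tested probes with a gene name. Their median log2 ratio was -0.20 on the miR-27b array, 0.01 on the miR-23b array, 0.02 on the miR-24 array and -0.02 on the miR-145 array. All named probes had medians of 0.03, 0.05, 0.03 and -0.07 on the same arrays. In 54 probes the site was followed by A, a letter that strengthens such sites, and there the median was -0.44 on the miR-27b array, -0.02 on miR-23b, -0.01 on miR-24 and 0.08 on miR-145. The shift was thus seen on 1 array of the 4 and was larger with the longer site.

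The sites of the other miRNAs each had their lowest median on their own array, but not all were near the median of all probes elsewhere. Probes with the miR-23b site AATGTGA had a median of -0.33 on the miR-23b array and -0.08 on the miR-27b array. Probes with the miR-24 site CTGAGCC had -0.38 on the miR-24 array and 0.03 on the miR-27b array. The miR-145 site AACTGGA gave -0.25 on the miR-145 array, 0.00 on the miR-27b array and -0.12 on the miR-24 array. Followed by A, it gave -0.14 on miR-27b, -0.12 on miR-23b and -0.15 on miR-24, against -0.33 on miR-145. On the miR-27b array 11.1% of probes with the miR-27b site followed by A were below -1. The share was 9.7% for the longer miR-23b site and 9.1% for the longer miR-145 site, against 4.85% of all named probes. The site of the other strand, miR-27b-5p, stood in 42 probes with a median of -0.03 on the miR-27b array. Of the 4 sites of the transfected miRNAs, the miR-27b site had the lowest median on this array. No test was made of these medians, since probes are not replicates.

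**Figure D1:**
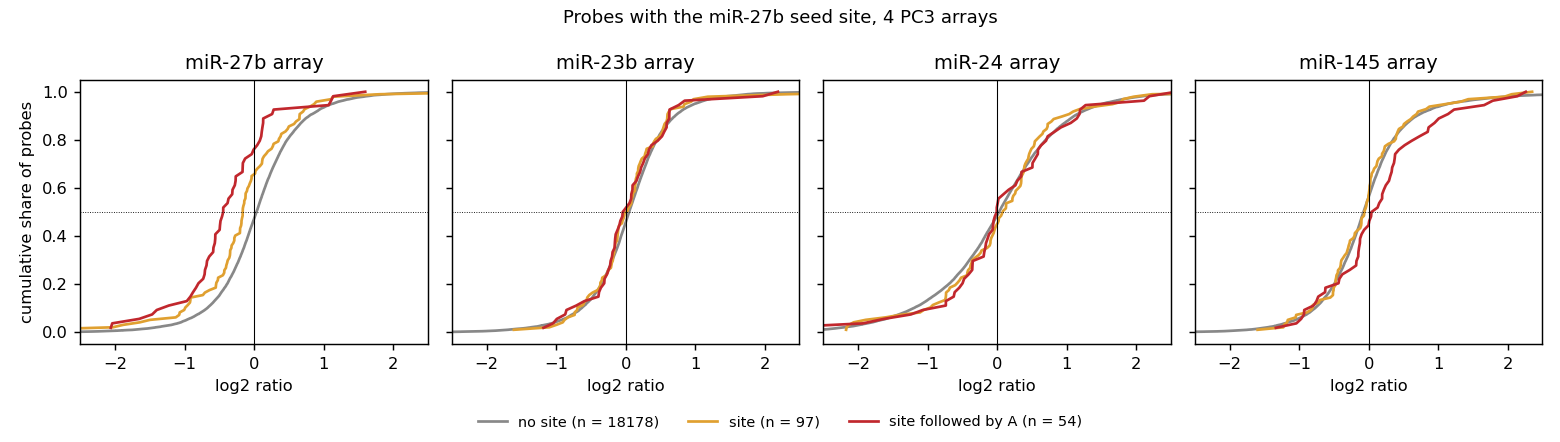
Cumulative share of named tested probes (vertical axis) by log2 ratio of Cy5 over Cy3 (horizontal axis, drawn from -2.5 to 2.5), 1 panel for each PC3 array, with lines for probes without the miR-27b seed site, with the site and with the site followed by A. The lines for the site lie to the left on the miR-27b array, where the 54 probes with the longer site have a median of -0.44, and overlap the line without the site on the miR-23b and miR-24 arrays.

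The following windows of 30 bases are shown because they hold the site in probes that were below -1 on the miR-27b array, in genes either lower than on all other PC3 arrays by at least 1 or reported as miR-27 targets. They are read 5′ to 3′ in the sense of the message from the array's probes, on hg19, with the site in capitals.
HDHD2: tgcatACTGTGAtaatcctgggccttgcaa
B4GALT3: gtagggcttatgACTGTGAatccttgatgt
ARSJ: acaactcaaaggACTGTGAtataatccatt
GTF2H5: ttataagcagcaACTGTGAaagacttgcca
DYNLT1: ccaaatgaccgcACTGTGAtgtgaatggca
LIMK1: ggaagtattaaaACTGTGAagctttctcag
The HDHD2 window lies at chr18:44633955-44633984 on the minus strand, B4GALT3 at chr1:161141376-161141405 on the minus strand, and ARSJ at chr4:114821667-114821696 on the minus strand. GTF2H5 lies at chr6:158613217-158613246 on the plus strand, DYNLT1 at chr6:159057701-159057730 on the minus strand and LIMK1 at chr7:73536676-73536705 on the plus strand. The array's annotation does not say which of these positions are in an untranslated region. ARSJ was not well above background in both channels of the miR-27b array. Its signals were 64.6 in Cy3 and 15.8 in Cy5, with a software error of 0.45.

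HDHD2, a predicted phosphatase of the haloacid dehalogenase family, had a log2 ratio of -3.24 on the miR-27b array, -1.10 on miR-23b, -0.32 on miR-24 and -0.32 on miR-145. B4GALT3, a galactosyltransferase, had -2.06, -0.87, -0.48 and -0.27 on the same arrays in that order. GTF2H5, a subunit of the repair and transcription factor TFIIH, had -1.65, -0.25, -0.19 and -0.17. These 3 genes were lowest on the miR-27b array, as the rule for showing them required. LIMK1, a kinase that acts on cofilin, had -1.40 on the miR-27b array but -1.93 on miR-24 and -1.04 on miR-145, so its value was not particular to miR-27b. Among the 92 genes that were below -1 and at least 1 below every other PC3 array, 0.665% of those tested, the gene's own probe held the site in 5, against 116 of 13837 tested genes and 0 of the 97 genes, 0.701%, that were higher by the same limits. Both the lower and the higher set were chosen by the log2 ratio on this array, and the counts are a description.

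Over all genes, 670 had a log2 ratio below -1 on the miR-27b array, 4.84% of those tested, and 948 had one above 1, 6.85%. On the miR-23b array 615 were below and 695 above, on miR-145 760 and 909, and on miR-24 1854 and 1718. The number of genes past this limit was thus similar for miR-27b, miR-23b and miR-145. To set apart what the miR-27b array did not share, a gene was also required to lie at least 1 outside the range of the 3 other PC3 arrays. This left the 92 lower and 97 higher genes. Just inside the lower limit, KMO lay 1.01 below the other arrays, and just outside it AMPD3 lay 0.99 below. Of the 92 lower genes 86 were well above background in both channels of all 4 arrays, and of the 97 higher genes 65 were. Where several probes of a gene were tested, all had the same sign in 31 of 35 lower genes and 13 of 14 higher genes.

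A test with limma of the miR-27b array against the other 3 arrays, in which the lone array was assumed to vary like the others, called 0 of 24266 probes at a Benjamini-Hochberg adjusted p of 0.05 in either direction. On simulated data with the spread of these arrays the test made no call even of large changes, so the lack of calls says nothing about whether probes changed. Unadjusted p-values of this fit set 1 array against 3 different miRNAs and were not read as a result. When all 16 arrays of the design entered, across cell lines and treatments, limma called 10 lower and 2 higher probes. CCNG1 was among them, with a difference of -3.34 (SE 0.42). The fit had no term for cell line. Its SE thus measures the spread between unlike experiments and not that between cultures of PC3 with miR-27b. Lower too were TLNRD1, with a difference of -2.25 (SE 0.31), BEX3, with -2.37 (SE 0.35), and MAIP1, with -1.94 (SE 0.29). The rest of the lower probes with a gene name were LHFPL7 at -3.31, ARF3 at -2.16, FLJ36000 at -1.91, OR10A5 at -1.74 and GTF2H5 at -1.58. Of these genes CCNG1, TLNRD1, BEX3, MAIP1 and ARF3 were below -0.5 on both renal arrays. In 786O and A498 OR10A5 had 0.04 and -0.04, FLJ36000 -0.02 and -0.12, LHFPL7 0.19 and -0.16 and GTF2H5 -0.16 and -0.20.

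The largest falls were in genes of several kinds. CCNG1, cyclin G1, which is induced by p53 and binds a phosphatase subunit that acts on MDM2, had -3.50 on the miR-27b array, -1.37 on miR-23b, -0.45 on miR-24 and -0.31 on miR-145. Its signal was 929 in the control channel and 82.2 in the miR-27b channel, and its 2 probes had -3.50 and -2.43. Its software error on the miR-27b array was 0.39. The rule for choosing these genes required a gap of at least 1 to the other arrays. TSPAN8, a tetraspanin of epithelial and tumour cells, had -3.92 on miR-27b, -2.38 on miR-23b, 0.09 on miR-24 and -0.71 on miR-145. PAPSS2, which makes the sulphate donor PAPS, had -3.36, -0.09, -0.53 and -1.49 on these arrays in the same order. CLDN1, a claudin of tight junctions, had -3.00, -1.52, 0.26 and 1.85. All 4 were also below -1 on 1 other array, which was miR-23b for CCNG1, TSPAN8 and CLDN1 and miR-145 for PAPSS2.

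FGF13, an intracellular member of the fibroblast growth factor family, had -3.03 on the miR-27b array and between -0.91 and 1.62 on the other 3. ANXA10, an annexin, had -2.89 against a range of -0.75 to -0.60. ADAMTS1, a secreted protease that cleaves proteoglycans, had -2.72 against -1.67 to -0.33, and its 2 probes had -2.72 and -2.64. All 3 were below every other PC3 array, as the rule for choosing them required. SUSD1 had -2.71, MOXD1 had -2.52 and CAB39L, which is related to the scaffold of the LKB1 kinase, had -2.39. H2BC21, a histone H2B gene, had -2.51 at its brightest probe and 0.17 at the other, so its probes disagreed.

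The largest rises were led by UHRF1, which brings DNA methyltransferase to newly copied DNA. It had 3.43 on miR-27b, 1.84 on miR-23b, 0.35 on miR-24 and -0.43 on miR-145, and both of its probes were above 1. PLAT, tissue plasminogen activator, had 2.97, 0.21, 1.84 and 0.01 on those arrays. KRT80, a keratin, had 2.80, 0.68, 0.93 and 1.11. These genes were highest on the miR-27b array by the rule that chose them, and each was also above 1 on 1 other array.

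Others among the 12 largest rises were genes of DNA synthesis and its control. E2F2, a transcription factor that drives S phase genes, had 2.43 on miR-27b, 0.92 on miR-23b, -0.39 on miR-24 and -0.47 on miR-145. TK1, thymidine kinase, had 2.19, 0.87, -0.22 and 0.19. FAM111A, a protease active at replication forks, had 2.15, 0.91, 0.69 and 0.96. Each was above all 3 other arrays by more than 1, which the rule for choosing these genes required. UBE2R2, a ubiquitin-conjugating enzyme that works with SCF ligases, had 2.51, SPNS2, a sphingosine-1-phosphate transporter, had 2.42, and MT1M, a metallothionein, had 2.30. WDR76 had 2.17 and GDAP1 had 2.09.

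**Figure D2:**
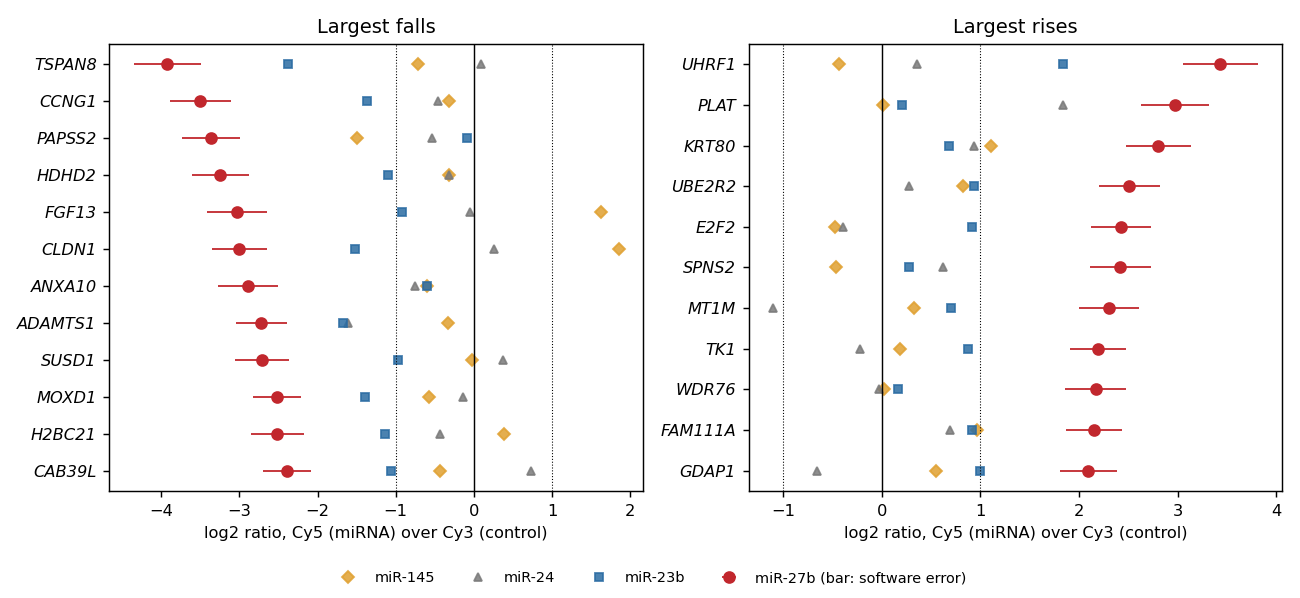
Log2 ratio of Cy5 (miRNA) over Cy3 (control) on the horizontal axis for the 12 largest falls and 11 of the 12 largest rises, with 1 point for each PC3 array and a bar for the software error on the miR-27b array. Dotted lines stand at -1 and 1. The miR-27b points run from -3.92 to -2.39 for the falls and from 2.09 to 3.43 for the rises and lie at least 1 outside the other points, as the rule for choosing these genes required.

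Genes that earlier work names as targets of the miR-27 family were mostly lower. The list held 46 genes, of which 38 were tested. CYP3A4, DLL4, LPL, MMP13, NFE2L2, SEMA6A and SFRP1 were among those with no probe that passed the filter. Their median log2 ratio was -0.87 on the miR-27b array, -0.13 on miR-23b, -0.25 on miR-24 and -0.47 on miR-145, where all tested genes had 0.04, 0.05, 0.02 and -0.06. Below -1 were 16 of the 38, 42.1%, against the 4.84% of all genes, and 1 was above 1. In 20 of the 38 the miR-27b array was the lowest of the 4, as it was in 2603 of all 13837 genes. The list was written from general knowledge of the literature, but with earlier results of these data known. It was not tested as a set, and its counts are a description.

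Among signalling genes of this list, MET, the receptor of hepatocyte growth factor, had -1.69 on the miR-27b array but -1.89 on miR-23b, and SPRY2, an inhibitor of receptor tyrosine kinase signalling, had -1.17 against -0.91 on miR-23b. VEGFC, a growth factor of lymphatic vessels, had -2.44 on miR-27b, -1.45 on miR-23b, -3.49 on miR-24 and 0.48 on miR-145. MAP2K4, a kinase upstream of JNK, had -1.43, -0.04, 1.03 and -0.64. MAP2K4 was thus lowest with miR-27b, and MET and VEGFC were lower with another miRNA. ROR1, a receptor of the Wnt family ligands, had -1.66 at its brightest probe, with probes from -2.004 to 0.26, and HIPK2, a kinase of the DNA damage response, had -2.02 with probes from -2.02 to 0.70.

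FBXW7, the substrate receptor of an SCF ligase that destroys cyclin E and MYC, had -1.20 on miR-27b, 0.01 on miR-23b, -0.05 on miR-24 and -0.04 on miR-145. CYP1B1, which oxidises oestrogens and foreign compounds, had -2.26, -1.10, 2.12 and -0.78. With CCNG1 these were the 3 reported targets beyond the other arrays. BMI1, a Polycomb protein, had -1.36, and PINK1, a kinase of mitochondrial quality control, had -1.49. GOLM1, a Golgi membrane protein that is silenced by siRNA on other arrays of the series, had -1.995 on miR-27b, -1.38 on miR-23b, -0.44 on miR-24 and 0.61 on miR-145, and its 2 probes had -2.04 and -1.995. It was lowest on the miR-27b array, with the value on miR-23b the nearest.

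Lipid genes on the list were GPAM, the first enzyme of triglyceride synthesis, ABCA1, a cholesterol exporter, and PPARG, the main factor of fat cell formation. GPAM had -1.91 on the miR-27b array and -2.44 on miR-145, and its 2 probes had -1.91 and 0.22. ABCA1 had -1.74 on miR-27b and -2.78 on miR-24, and PPARG had -1.43 on miR-27b and -1.57 on miR-24. Each was below -1 on another array as well. Reported targets that stayed within 1 included ZBTB10 at -0.99, RXRA at -0.89, RUNX1 at -0.71, with probes from -1.39 to 0.03, and TGFBR1 at -0.71. THRB, at -0.84 with a software error of 0.65, was not well above background in both channels. PDPK1, GRB2, PHB1, FADD, ST14, APAF1, EGFR and APC lay between -0.53 and -0.08 at their brightest probes. Probes of EGFR ran from -1.08 to -0.13, and those of PHB1 from -0.48 to 0.16. FOXO1, NOTCH1, LRP6, VDR and CDC27 lay between 0.17 and 0.73. PKMYT1, an inhibitory kinase of CDK1, was the member above 1, at 1.17.

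**Figure D3:**
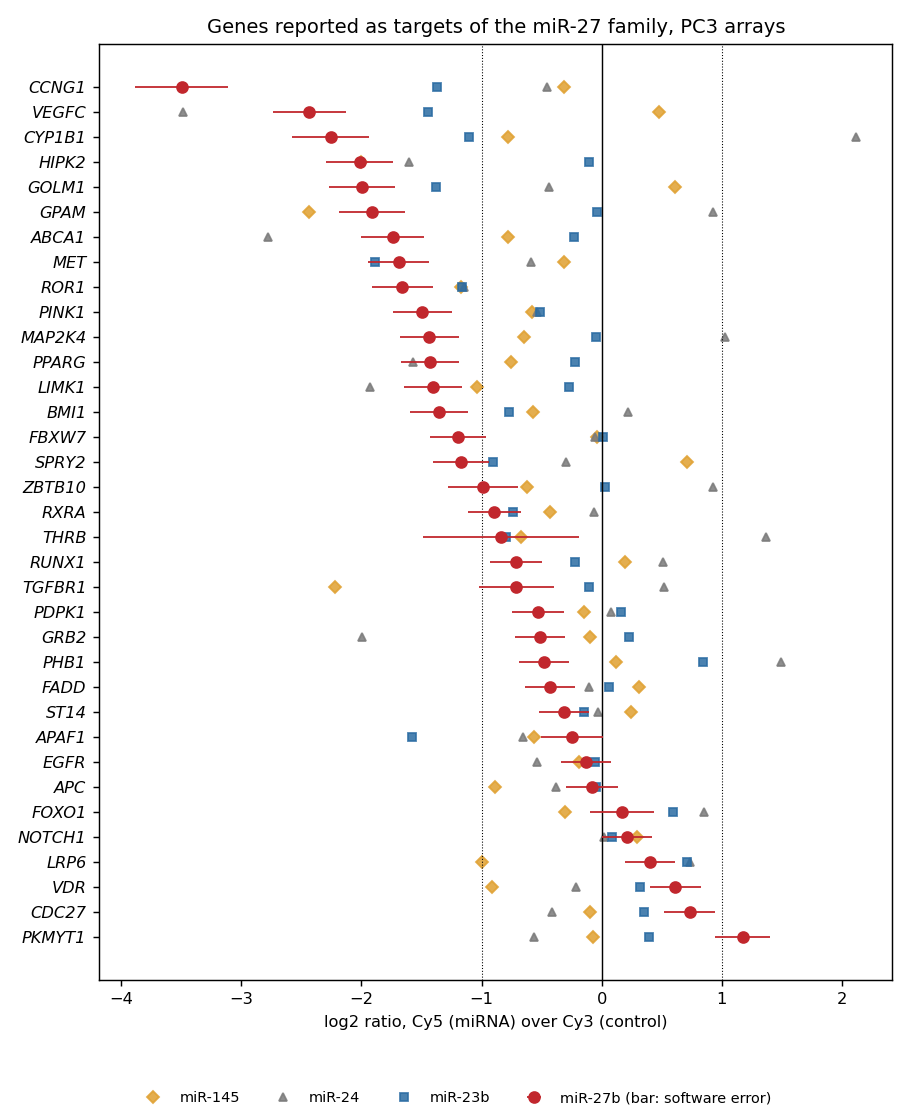
Log2 ratio of Cy5 (miRNA) over Cy3 (control) on the horizontal axis for 35 of the 38 tested genes reported as miR-27 targets, ordered by the miR-27b array, with 1 point for each PC3 array and a bar for the software error on the miR-27b array. The miR-27b points run from -3.50 for CCNG1 to 1.17 for PKMYT1, and 16 lie below the dotted line at -1.

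Genes of DNA replication and of mitosis were higher. All 20 tested S phase genes had a log2 ratio above 0 on the miR-27b array, with a median of 1.09, and 12 of the 20 were above 1, against 6.85% of all genes. Their medians were 0.32 on miR-23b, 0.51 on miR-24 and -0.22 on miR-145. Above 1 were 1 of the 20 on miR-23b, 7 on miR-24 and 0 on miR-145. TYMS, thymidylate synthase, had 2.32 on miR-27b, 0.97 on miR-23b, 1.499 on miR-24 and 0.25 on miR-145. CCNE2, a cyclin of S phase entry, had 1.92, 0.40, 1.24 and 0.29, and RRM2, a subunit of ribonucleotide reductase, had 1.62, 0.70, 0.06 and 0.19. The miR-27b array was the highest for 15 of the 20 genes, as it was for 2936 of all 13837. PCNA, the clamp of DNA polymerase, had 1.43, MCM2 and MCM5, parts of the replicative helicase, had 1.26 and 1.22, and CDT1, which loads it, had 1.29. E2F1 was the lowest member, at 0.29.

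All 20 G2 and mitosis genes were above 0, with a median of 1.05, and 13 were above 1, against 6.85% of all genes. The median was 0.26 on miR-23b, 0.96 on miR-24 and -0.79 on miR-145, and 10 of the 20 were above 1 on miR-24, so that array came near it. BIRC5, survivin, had 2.15 on miR-27b, 1.41 on miR-23b, 1.02 on miR-24 and -0.58 on miR-145. CCNA2, cyclin A2, had 1.79, 1.21, 1.88 and -1.02, and TOP2A, a topoisomerase, had 1.69, 0.48, 2.39 and -1.08. KIF11, a spindle motor, had 1.56, 0.46, -0.21 and -0.80. KIF11 and MKI67, a marker of cycling cells with 1.14, were the 2 members beyond the other arrays. The probes of MKI67 ran from 0.80 to 1.54. More cycling cells and more RNA of these genes per cell cannot be told apart in bulk RNA.

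**Figure D4:**
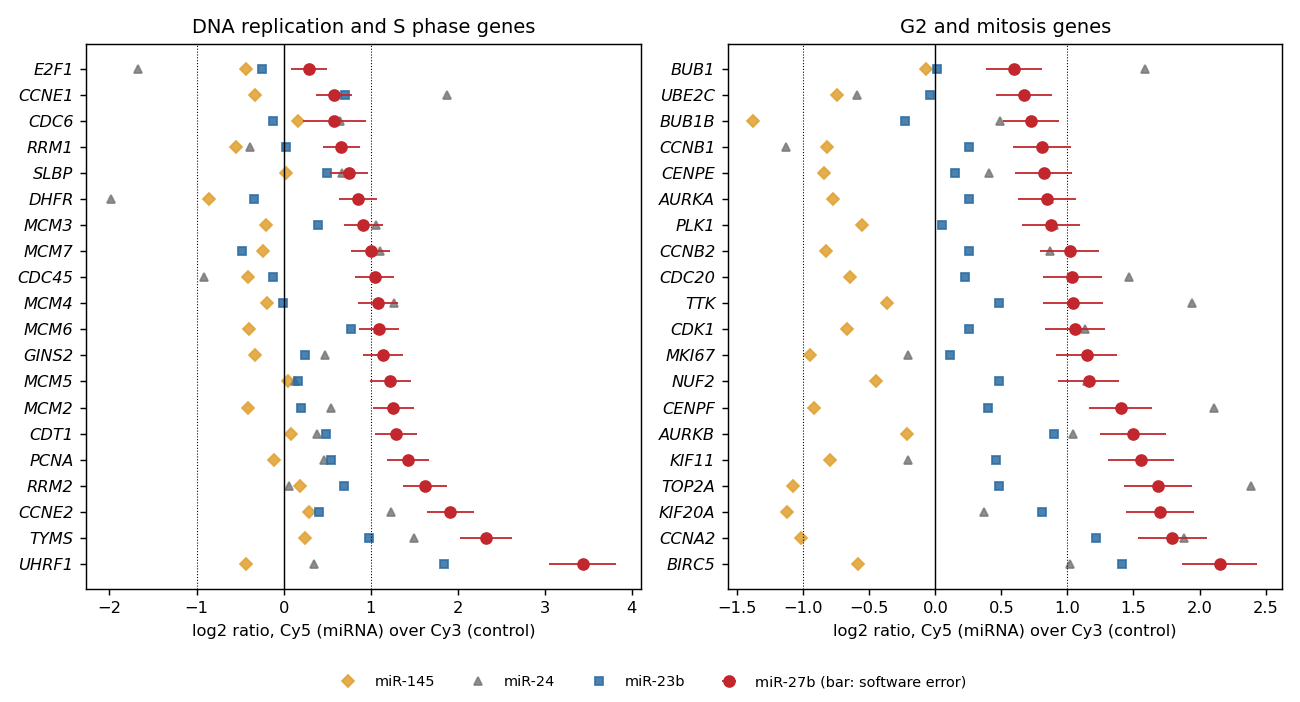
Log2 ratio of Cy5 (miRNA) over Cy3 (control) on the horizontal axis for 20 S phase genes and 20 G2 and mitosis genes, with 1 point for each PC3 array and a bar for the software error on the miR-27b array. All miR-27b points lie above 0, with medians of 1.09 and 1.05, while the miR-145 points have medians of -0.22 and -0.79.

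Promoters were searched for the E2F motif in the window from 250 bases before to 50 after the start of the gene. The spellings were TTTCCCGC, TTTCGCGC, TTTGCCGC and TTTGGCGC on both strands. These spellings can overlap each other on opposite strands. RefSeq promoters on GRCh38.p14 were used. The motif stood in 11 of 16 S phase promoters, in 1 of 16 G2 and mitosis promoters, in 11 of 63 promoters of genes higher beyond the other arrays, in 0 of 74 of the lower genes, in 6.46% of the 10975 promoters of tested genes and in 3.99% of all 27305 promoters. Windows of 30 bases around the motif, in capitals, are shown for UHRF1 and E2F2, which were higher beyond the other arrays, and for TYMS and MCM2, S phase genes above 1 that were not.
UHRF1: cccgagcccgaTTTCGCGCgccctgagttc
E2F2: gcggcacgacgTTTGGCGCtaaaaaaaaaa
TYMS: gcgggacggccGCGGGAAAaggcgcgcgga
MCM2: cgtgaaccactTTTCGCGCgaaacctggtt
They lie at chr19:4909973-4910002 for UHRF1, chr1:23531257-23531286 for E2F2, chr18:657603-657632 for TYMS and chr3:127598402-127598431 for MCM2, on the minus strand for E2F2 and the plus strand for the others. The motif was searched for after the values were seen, and a match is no evidence of binding. The S phase count depends on the choice of the list, which was made with earlier results of these data known. The higher and lower sets were chosen by their log2 ratios on this array, and the higher set includes dim genes. The counts are a description, and the cause of the rise was not tested.

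Other gene groups moved less. Epithelial and mesenchymal genes had a median of 0.26 over 20 genes, with 3 of them, all epithelial, below -1, against 4.84% of all genes. The same list had 3 genes below -1 on miR-23b, 2 on miR-24 and 1 on miR-145. Its medians there were 0.03, 0.14 and 0.04, so the count was not particular to miR-27b. CDH1, E-cadherin, had -2.39 on miR-27b, -1.93 on miR-23b, -0.57 on miR-24 and -0.43 on miR-145, and EPCAM, an adhesion molecule, had -1.47, -0.54, -0.38 and -0.54. CLDN1 was the third gene below -1 on the miR-27b array. Of the other epithelial genes some had values above 0, with KRT19 at 0.60, CLDN4 at 0.51, JUP at 0.38, CLDN7 at 0.30, TJP1 at 0.22, DSP at 0.15 and KRT18 at 0.20, and OCLN, ST14 and KRT8 had -0.93, -0.32 and -0.10. Another tested probe of OCLN had -1.67. The list thus did not move one way. No mesenchymal gene on the list passed 1, with SNAI1 at 0.73 and VIM at 0.67. Among lipid and cholesterol genes, 3 of 19 were below -1, namely GPAM, ABCA1 and PPARG, against 4.84% of all genes, with a median of -0.46. The same list had 10 of 19 below -1 and a median of -1.04 on miR-24, and 3 of 19 and -0.38 on miR-145. The median was -0.18 after subtraction of the other arrays of the slide. Of 20 genes of the TGF-beta pathway 4 were above 1, against 6.85% of all genes, with a median of 0.04. On miR-24 7 were above 1, with a median of 0.35, and on miR-23b 3 were, with a median of 0.20. CCN2, a matricellular protein, had 1.997 on miR-27b, 2.43 on miR-23b, 4.75 on miR-24 and 0.90 on miR-145. INHBA, an activin subunit, had 1.42, and SMAD3, a signal transducer of the pathway, had 1.07.

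The Wnt and Notch genes had a median of 0.28 over 19, with HES1, a Notch target, at 1.51 and FZD7, a Wnt receptor that was not well above background in both channels, at 1.62. Receptor tyrosine kinase and ERK genes had a median of 0.04 over 29, with MET and SPRY2 below -1. Regulators of G1 had a median of 0.25 over 15, with CCNG1 below -1 and RBL1, a pocket protein, at 1.02. Apoptosis genes had a median of -0.04 over 22, with BIRC3, an inhibitor of apoptosis, at -1.501, and BCL2 and FAS, neither well above background in both channels, at 1.82 and 2.15. The stress genes of the ATF4 response had a median of -0.21 over 13, with SLC7A11, a cystine transporter, at -1.88, VLDLR at -1.32 and ATF3 at -1.20, where the 4 probes of ATF3 ran from -1.20 to 0.04. The miRNA machinery had a median of 0.19 over 12 and no member past 1, with XPO5 at -0.43, TNRC6C at 0.63 and TARBP2 at 0.92 farthest from 0.

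Interferon response genes had a median of 0.03 over 18 on the miR-27b array, with IFI44L at -2.65, IFIT2 at -1.09, OAS1 at -1.05, IFI44 at -1.04 and OAS3 at 1.04. On the miR-145 array the same list had a median of 4.06. The other marker lists were small. CAV1 of the PC3 markers had -1.62, LUM of fibroblasts had -1.95 and COL1A1 had 1.56, and CD14 of leukocytes had 1.30. The summed signal of the fibroblast markers was 1510 in the control channel and 4201 in the miR-27b channel, most of it COL1A1, with COL1A2, DCN and PDGFRB not above background in the control channel. For the leukocyte markers the sums were 126 and 265, with CD3E not above background. The part of other cells in any result was not tested.

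The genes lower in PC3 were often lower in the renal lines too. The arrays of miR-27b in 786O and A498 came from other cells and another array design and took no part in choosing the genes. Of 92 lower genes, 83 were measured there, and 27 of the 83, 32.5%, were below -0.5 on both renal arrays, against 1.17% of 12954 genes. Below 0 on both were 59 of the 83, 71.1%, against 30.8% of all genes. Their median was -0.32 in 786O and -0.33 in A498, where all genes had 0.02 and 0.01. HDHD2 had -1.88 in 786O and -1.56 in A498, CCNG1 had -1.18 and -0.98, and TLNRD1, a talin-related protein, had -1.01 and -1.08. MAIP1, a mitochondrial matrix protein, had -1.22 and -1.41, and B4GALT3 had -1.13 and -1.34. These values were smaller than in PC3. TSPAN8 went the other way, with 1.03 in 786O and 0.71 in A498, and CLDN1 had 0.01 and -0.25.

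The higher genes were not shared in this way. Of the 88 measured, 3 were above 0.5 on both renal arrays, 3.41%, against 0.98% of all genes. Above 0 on both were 43.2%, against 36.6%. The higher set held more dim genes. In it 65 of 97 were well above background in all channels of the 4 PC3 arrays, against 86 of 92 lower genes. Whether this bears on the contrast of the 2 sets was not tested. The S phase genes had medians of 0.15 in 786O and -0.05 in A498, and the G2 and mitosis genes 0.05 and 0.11. UHRF1, with 0.57 and 0.63, KRT80, with 1.07 and 1.14, and UBE2R2, with 0.91 and 0.76, were the 3 higher genes above 0.5 on both. Reported targets had medians of -0.28 and -0.24 over 38 genes. Among them PPARG had -1.21 and -1.13, LIMK1 had -1.14 and -1.22, and GOLM1 had -1.10 and -0.71. MET, at -0.25 and -0.13, was nearer to 0. Whether the lines differ was not tested, since each had 1 array and the designs were not the same.

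**Figure D5:**
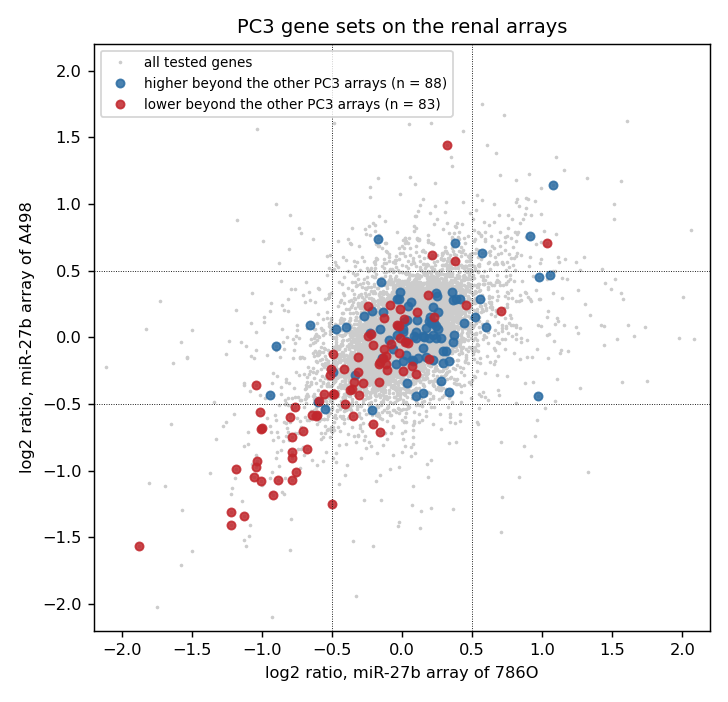
Log2 ratio on the miR-27b array of 786O (horizontal axis) and of A498 (vertical axis), with grey points for all tested genes and coloured points for genes lower or higher beyond the other PC3 arrays. Both axes are drawn from -2.2 to 2.2, which leaves out 14 genes, and dotted lines stand at -0.5 and 0.5. Of 83 lower genes 27 lie below -0.5 on both axes, and of 88 higher genes 3 lie above 0.5 on both.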

How the data were processed

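Per the labels, RNA was labelled with the Agilent 2-colour low-input kit and scans were read with Agilent Feature Extraction 10.7.3.1. The deposited files hold spot intensity in both channels and the log10 ratio of Cy5 over Cy3 after the software's background and dye correction, with its error. The deposited value table repeats the log10 ratio. Of these, 18 scanner files were used. Control spots and outlier flags were left out, spots were averaged per probe, and log10 ratios were turned into log2 ratios. The number of arrays limits the precision. Probe names were matched to RefSeq genes (GRCh38.p14, names only). Genes were called by size, at 1 on the log2 scale, and limma 3.58.1 in R 4.3.3 was the test. On simulated data it recovered changes when all probes had an equal small spread and made no calls at the spread of these arrays. Python 3.11.15 and matplotlib 3.10.9 served the rest. The members and lists were chosen with earlier results of these data known. Named genes were up to 12 falls and 12 rises, largest first, among genes past 1, at least 1 outside the other PC3 arrays and well above background in all channels, together with all reported miR-27 targets, list members past 1 (or the 3 farthest from 0), and GOLM1; site and renal examples were chosen after their values were seen. Alternatives were normexp (offset 50) or no background correction with loess, median centring, subtraction of other arrays, other filters, the mean over probes and other limits. Transcript sequences were not used here. A few genes that these rules name are not reported here, but counts and medians include them.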

Additional observations from a re-analysis of the deposited data

How the results depend on the processing

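Normexp or no background correction, each with loess, lowered the counts. Genes below -1 went from 670 to 346 and 388, genes above 1 from 948 to 374 and 415, genes lower beyond the other arrays from 92 to 42 and 44, and higher from 97 to 38 and 44. Of the 42 and 44 lower genes, 41 and 43 were among the 92. Without a filter on dim probes 1329 genes were below -1, and 331 and 164 were lower and higher beyond the other arrays. With all channels well above background 608 were above 1. Limits of 0.5 and 1.5 gave 2095 and 239 genes below and 2674 and 333 above, and a margin of 0.5 gave 240 lower and 272 higher beyond. Leaving out 1 other PC3 array gave 129 to 188 lower and 114 to 241 higher genes, with 188 and 241 without miR-23b and 151 and 210 without miR-24. Limma called 0 probes in each fit of PC3 arrays, and 10 lower and 2 higher over all arrays of the design. Subtracting the other arrays of the slide moved the medians of lipid genes to -0.18, TGF-beta genes to 0.37, interferon genes to -0.51, ATF4 genes to -0.63, genes absent from PC3 to -0.51 and leukocyte markers to 0.88. Subtracting the other treatments of the design moved G2 and mitosis genes to 1.32, interferon genes to -0.85, ATF4 genes to -0.60 and genes absent from PC3 to -0.21. The marker lists rest on 2 or 3 tested genes and had main medians of 0.64 for genes absent from PC3, -0.20 for fibroblasts and 1.13 for leukocytes. Normexp and no correction gave 0.069 and 0.059 for genes absent from PC3, 0.48 and 0.43 for fibroblasts, where the sign changed, and 0.49 and 0.54 for leukocytes. The bright filter gave 0.92 for genes absent from PC3 and 1.56 for fibroblasts, no filter gave 0.16, 1.43 and 0.89 for the 3 lists, and the mean over probes gave 0.80 for leukocytes. The seed site followed by A had -0.44 against -0.20. Medians of reported targets and S phase genes moved by less than the software error under every alternative run. Of 89 named genes past 1 none changed sign under these alternatives, but 72 stayed past 1 with normexp and 72 after subtracting the slide's other arrays, where 51 moved by more than their software error. Named genes within 1 were not run. The causes were not tested. No paired analysis was possible because each condition had 1 array. With 1 array a condition, the spread between cultures is unknown.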
